A study of Homo sapiens with 4 samples.

Results

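The E2F family of transcription factors and its partners were followed through an RNA-seq experiment in A549 cells, a human lung adenocarcinoma line with epithelial origin. Lentiviruses delivered either shctrl, a control hairpin, or shUSP2-AS1, a hairpin against the long noncoding RNA USP2-AS1, and the transcriptome was read 72 h later. There were 2 biological replicates in each of the 2 groups, and polyadenylated RNA was sequenced. The source text does not say which of the study's USP2-AS1 shRNAs was used, and both groups carried a lentivirus. The family was taken by gene symbol as 10 genes, E2F1, E2F2, E2F3, E2F4, E2F5, E2F7, E2F8, TFDP1, TFDP2 and RBL1, of which 6 are among the 6828 genes of the deposited table. The listed genes are E2F1, E2F4, E2F7, E2F8, TFDP2 and RBL1.

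E2F proteins bind promoters of genes needed for entry into S phase, the part of the cell cycle in which DNA is copied. E2F1, E2F2 and E2F3 are known as activators, and the pocket protein RB1 silences them in resting cells until cyclin-dependent kinases release them. E2F4 and E2F5 are known as repressors that act mainly with the pocket proteins RBL1 and RBL2, and both classes bind DNA as dimers with a DP protein, encoded by TFDP1 or TFDP2. E2F7 and E2F8 are atypical repressors that need neither a DP partner nor a pocket protein and whose genes are themselves E2F targets. In lung adenocarcinoma the kinase side of this pathway is often altered, and A549 cells are known to lack the kinase inhibitor gene CDKN2A.

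All 6828 listed genes had an adjusted p-value below 0.05 in the comparison made by the authors, so each listed family gene had to differ between the groups. E2F2, E2F3, E2F5 and TFDP1 were not among the listed genes, and their expression is not analysed here. The related genes E2F6, TFDP3, RB1 and RBL2 were not among them either. Of the 3 activators 1 was listed, and of the 4 repressors 3 were listed. A gene outside the table has no value here, and neither a level of 0 nor a lack of change can be read from its absence. The values are normalized read counts, that is reads per gene divided by a size factor of the library. The reads on the listed genes came to 12330115 and 10772788 in shctrl against 11715962 and 14120472 in shUSP2-AS1.

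The listed members were searched for E2F-type motifs in RefSeq promoters of the GRCh38.p14 build, from 250 bases before to 50 bases after the start of the gene. The letters searched were TTTCCCGC, TTTCGCGC, TTTGCCGC and TTTGGCGC on both strands. These letters occurred in 3.31% of 35116 promoters, and 2 or more occurrences were found in 0.145%. Of the 6 listed members 5 matched an entry, with 7 promoters in all, and E2F8 was missing. E2F1 and RBL1 each held 2 occurrences, all within the 60 bases before the start. E2F4, E2F7 and the 3 promoters of TFDP2 held none of these letters, and TTTGAA, one of the letters of the cell cycle homology region motif (TTTGAA or TTCGAA, found in 16.4% of promoters), occurred in 2 of the TFDP2 promoters. The last bases before the start of E2F1 and RBL1, which carry the occurrences, are shown with those of E2F7 and E2F4, which carry none, in the direction of the gene and with the motif letters in capitals.
E2F1, minus strand, chr20:33686386-33686445: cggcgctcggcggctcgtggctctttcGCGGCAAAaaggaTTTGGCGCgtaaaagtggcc
RBL1, minus strand, chr20:37095998-37096057: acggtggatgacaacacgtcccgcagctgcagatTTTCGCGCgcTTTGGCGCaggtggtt
E2F7, minus strand, chr12:77065570-77065629: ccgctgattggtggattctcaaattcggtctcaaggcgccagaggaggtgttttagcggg
E2F4, plus strand, chr16:67192095-67192154: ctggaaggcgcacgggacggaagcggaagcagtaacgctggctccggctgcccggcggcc
In E2F1 the first block, 33 bases before the start, reads TTTGCCGC on the opposite strand, and the second lies 20 bases before the start. In RBL1 the blocks lie 26 and 16 bases before the start. No promoter of a listed member held both E2F-type and TTTGAA letters. Among the members outside the table, E2F2, 1 of the 2 promoters of E2F3, and TFDP1 held 1 occurrence each, at 42, 53 and 120 bases before the start, and that E2F3 promoter also held TTTGAA. E2F5 was missing. A match of letters is a description and not a binding site.

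The targeted RNA was examined first. USP2-AS1 had normalized read counts of 23.2 and 24.2 in shctrl, replicates 1 and 2, against 2.10 and 6.16 in shUSP2-AS1. The groups did not overlap, with both knockdown libraries low. The log2 fold change was -2.39 (SE 0.56, adjusted p = 0.000597 by limma), and it rests on 24 and 22 reads against 2 and 7 reads.

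The 6 listed family genes were lower in the shUSP2-AS1 libraries. Calls come from a limma fit to the 6812 genes whose mean normalized read count was 10 or more, and a called gene had an adjusted p below 0.05 together with a log2 fold change of 1 or more in either direction. Of the 6 listed members 5 were called lower (E2F1, E2F7, E2F8, TFDP2 and RBL1) and 0 were called higher. Of all genes tested, 13.5% were called lower and 16.1% were called higher, 29.7% in either direction. That balance depends on the scaling, with 1143 genes called lower and 930 higher after RLE scaling, against 922 and 1098 here, and the same 5 family genes called. The 6 members were all lower at the adjusted p alone, where 49.4% of the tested genes were lower and 50.6% higher. For all 6 members both shUSP2-AS1 libraries lay below both shctrl libraries, as they did for 49.3% of the tested genes. That share is 3361 genes, beside 3362 that were lower at the adjusted p. In a table of genes selected for a difference, a lack of overlap thus adds almost nothing to the direction of a change. The median log2 fold change of the 6 was -1.34, beside 0.19 for all tested genes. In bulk RNA, fewer cells that express a gene and less RNA per cell cannot be told apart.

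**Figure D1:**
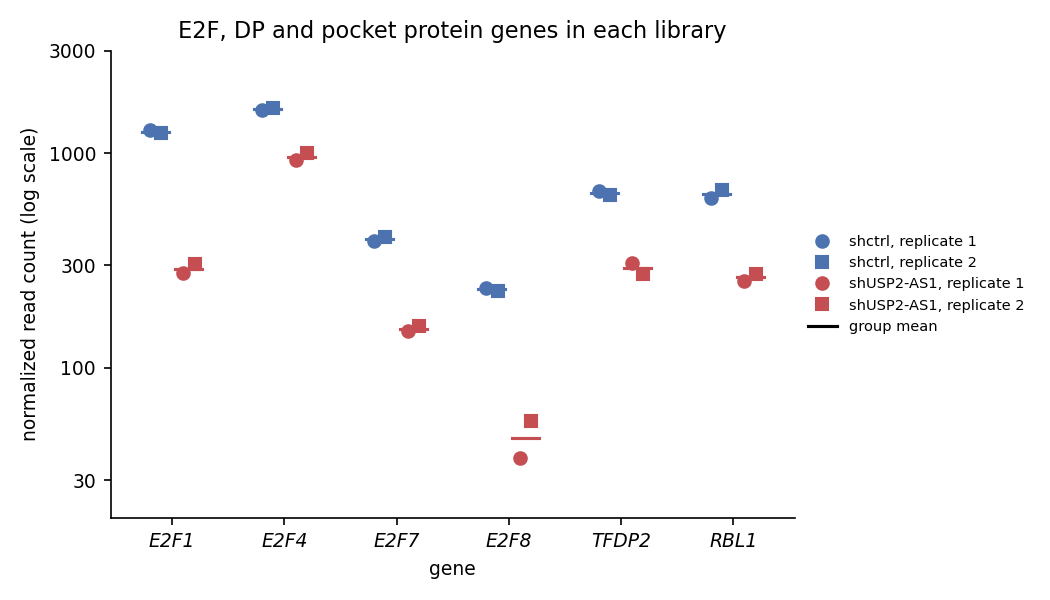
Normalized read count (log axis) of the 6 listed family genes in each of the 4 libraries, with blue for shctrl and red for shUSP2-AS1, circles for replicate 1, squares for replicate 2 and a horizontal line for each group mean. In each gene both red points lie under both blue points; the widest gap between replicates on this axis is that of E2F8 in the knockdown, at 37.9 and 56.3.

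E2F1, the listed activator, lies on the minus strand of chromosome 20 (ENSG00000101412, 33675477 to 33686385 in GRCh38). Its normalized read count was 1280 and 1241 in shctrl against 276 and 304 in shUSP2-AS1. The shUSP2-AS1 values were the low ones, and the distance between the groups was far wider than that between replicates. The means were 1261 ± 28.0 and 290 ± 19.96 (SD, n = 2 each), so that 23.0% of the control level was left, a 4.35-fold lower level. The log2 fold change was -2.12 (SE 0.08, limma adjusted p = 2.36e-13). Counted from the most negative change, E2F1 stood at position 185 of the 6812 genes.

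Among the repressors, the atypical E2F8 and E2F7 were called lower. E2F8 (ENSG00000129173, minus strand of chromosome 11, 19224063 to 19241620) had 235 and 229 normalized reads in shctrl against 37.9 and 56.3 in shUSP2-AS1. The control replicates were close together, while the second knockdown library had the higher value of its pair, and the groups did not overlap. E2F8 was 4.92-fold lower, with a log2 fold change of -2.30 (SE 0.19, limma adjusted p = 5.69e-09), and stood at position 123. It was the least deeply covered member. Its knockdown values rest on 36 reads (95% exact Poisson interval 25.2 to 49.8) and 64 reads (49.3 to 81.7), intervals in reads that cover counting error only. Since 1 read was worth 1.05 in the first knockdown library and 0.880 in the second, these intervals cannot be set against each other directly. The log2 fold change of E2F8 was -2.58 without the second knockdown library and -2.02 without the first.

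E2F7 (ENSG00000165891, minus strand of chromosome 12, 77021248 to 77065569) had 391 and 408 normalized reads in shctrl against 148 and 156 in shUSP2-AS1. Replicates were tight in both groups, and the knockdown libraries were again the low ones. The mean fell to 38.1% of control, from 400 ± 11.6 to 152 ± 5.35 (SD, n = 2 each). The log2 fold change was -1.39 (SE 0.12, limma adjusted p = 4.64e-09).

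E2F4, the listed repressor that works with pocket proteins, had the smallest difference of the 6. The gene (ENSG00000205250) lies on the plus strand of chromosome 16, from 67192155 to 67198918. Its normalized read count was 1584 and 1619 in shctrl against 926 and 997 in shUSP2-AS1. The groups did not overlap, and the knockdown libraries kept 60.05% of the control level. Its log2 fold change of -0.74 (SE 0.06, limma adjusted p = 9.48e-09) was beyond the replicate spread but short of the fold change threshold, so it was not called. E2F4 stood at position 1499 of 6812.

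The DP gene and the pocket protein gene were both called lower. TFDP2, which encodes a DP subunit (ENSG00000114126, minus strand of chromosome 3, 141944428 to 142149544), had 670 and 642 normalized reads in shctrl against 308 and 273 in shUSP2-AS1. Both knockdown values were low and the groups were well apart, with 44.3% of control left. Its log2 fold change was -1.17 (SE 0.10, limma adjusted p = 3.36e-09), the called change nearest to the threshold, and leaving out 1 library gave -1.26 to -1.09. In a test against a fold change of 2 in place of 0, the adjusted p of TFDP2 was 0.212 by limma and the gene was no longer called.

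RBL1, the pocket protein known as p107 and itself described as an E2F target (ENSG00000080839, minus strand of chromosome 20, 36996349 to 37095997), had 617 and 674 normalized reads in the shctrl libraries. In the shUSP2-AS1 libraries it had 254 and 273. The control replicates lay further apart than the knockdown ones, with no overlap between groups. The level left was 40.8% of control, and the log2 fold change was -1.29 (SE 0.10, limma adjusted p = 1.10e-09).

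**Figure D2:**
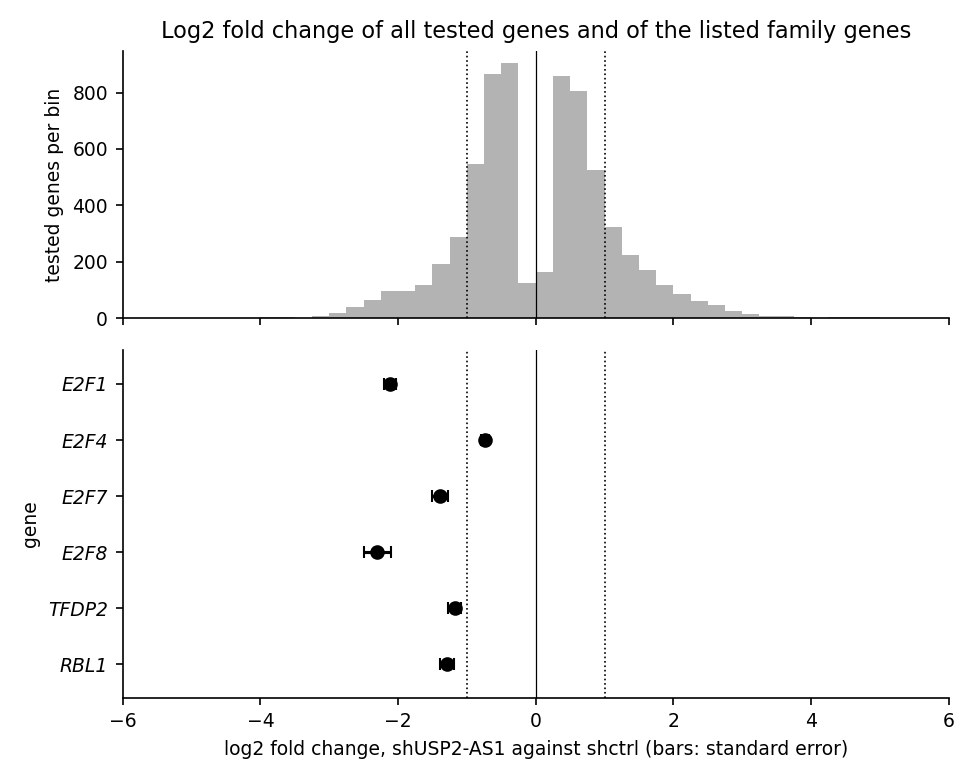
Upper panel, number of tested genes per bin of 0.25 in log2 fold change (shUSP2-AS1 against shctrl), with a gap near 0 because the table lists genes selected for a difference. Lower panel, log2 fold change with standard error of the 6 family genes on the same axis, where 5 lie beyond the dotted line at -1 and E2F4, at -0.74, does not.

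Annotated neighbours could share reads with some of these genes. In GENCODE release 44, the coordinates of all 6 genes are the same as in the table and all 6 are protein coding. E2F8 lies wholly within CSRP3-AS1, a noncoding gene on the opposite strand (chromosome 11, 19196775 to 19281426). The start of RBL1 overlaps the noncoding gene ENSG00000269846 on the plus strand (chromosome 20, 37095785 to 37097178). Neither neighbour was among the listed genes. The strand setting of the counting is not given in the sources used here, and without strand the reads of such pairs cannot be told apart.

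The members differed in how far they fell. To compare them, the log2 ratio of each gene to E2F1 in the same library was fitted in limma across genes, an approach chosen after the data were seen. Every ratio holds the same E2F1 values, so the tests are not independent and their errors share the replicate spread of E2F1. Against E2F1, 95.2% of the other tested genes had a less negative change at an adjusted p below 0.05. The change of E2F4 was less negative than that of E2F1 by 1.38 (SE 0.10, adjusted p = 6.98e-06). For TFDP2 the gap to E2F1 was 0.95 (SE 0.13, adjusted p = 0.000291). For RBL1 it was 0.83 (SE 0.11, adjusted p = 0.000194), and for E2F7 0.73 (SE 0.10, adjusted p = 0.000288). E2F8 was not distinguished from E2F1, with a difference of -0.18 in log2 fold change and a 95% interval of -0.55 to 0.18 (adjusted p = 0.277 by limma). From the most negative value, the log2 fold changes ran E2F8, E2F1, E2F7, RBL1, TFDP2 and E2F4, and differences among E2F7, RBL1 and TFDP2 were not tested. Without the first knockdown library, E2F1 (-2.05) lay below E2F8 (-2.02) and TFDP2 (-1.26) below RBL1 (-1.24).

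Activator and repressor E2Fs could be compared through 1 gene against 3. The log2 fold change of E2F1 was more negative than the mean of E2F4, E2F7 and E2F8 (-1.48) by 0.64, with a pooled SD between replicates of 0.06 on the same log2 scale. That mean hides a wide spread among the repressors, since E2F8 fell as far as E2F1 within error and E2F4 fell least. Within the repressors, E2F4 and the mean of E2F7 and E2F8 (-1.84) lay 1.11 apart (pooled SD 0.11). Members of a class are not replicates, so no test was made over them. With 2 libraries against 2, the smallest two-sided p of an exact permutation test is 0.333. Leaving out 1 library gave an E2F1 to repressor difference of -0.70 to -0.59 and an E2F4 to E2F7 and E2F8 difference of 1.00 to 1.21.

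Levels of different genes were compared per kilobase of the gene length given in the table. In the shctrl libraries, E2F1 had 476 and 461 normalized reads per kb and E2F4 had 440 and 450. These leading levels were close to each other, with E2F1 slightly above E2F4 in both libraries. This order depends on the length, since E2F4 had the higher normalized read count before division by it. RBL1 followed with a mean of 108 ± 6.67, E2F7 with 63.5 ± 1.84, E2F8 with 56.0 ± 1.06 and TFDP2 with 55.1 ± 1.65 normalized reads per kb (SD, n = 2 each). The last pair differed by less than the replicate spread. In the shUSP2-AS1 libraries E2F4 led with 258 and 277 normalized reads per kb, and E2F1 had 102 and 113. E2F1 was thus well below E2F4 in both knockdown libraries. RBL1 followed at 44.3 ± 2.19, TFDP2 at 24.4 ± 2.09, E2F7 at 24.2 ± 0.85 and E2F8 at 11.4 ± 3.16, and TFDP2 and E2F7 differed by less than the replicate spread.

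The makeup of the E2F messenger pool was therefore different between the groups. The summed level of E2F1, E2F4, E2F7 and E2F8 was 1035 and 1032 normalized reads per kb in shctrl against 393 and 428 in shUSP2-AS1, 39.7% of control. E2F1 made up 45.3% ± 0.887 of this sum in shctrl and 26.2% ± 0.196 in shUSP2-AS1 (SD, n = 2 each). The share of E2F4 was 43.1% ± 0.781 in shctrl and 65.1% ± 0.642 in shUSP2-AS1. E2F4 thus held the larger part of a smaller sum, although its own level was lower too. E2F7 had 6.15% ± 0.194 in shctrl and 5.89% ± 0.155 in shUSP2-AS1. For E2F8 the shares were 5.42% ± 0.0886 and 2.76% ± 0.601. The unlisted E2F genes are not part of this sum, so these are shares of the listed E2F messengers and not of all E2F messengers.

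**Figure D3:**
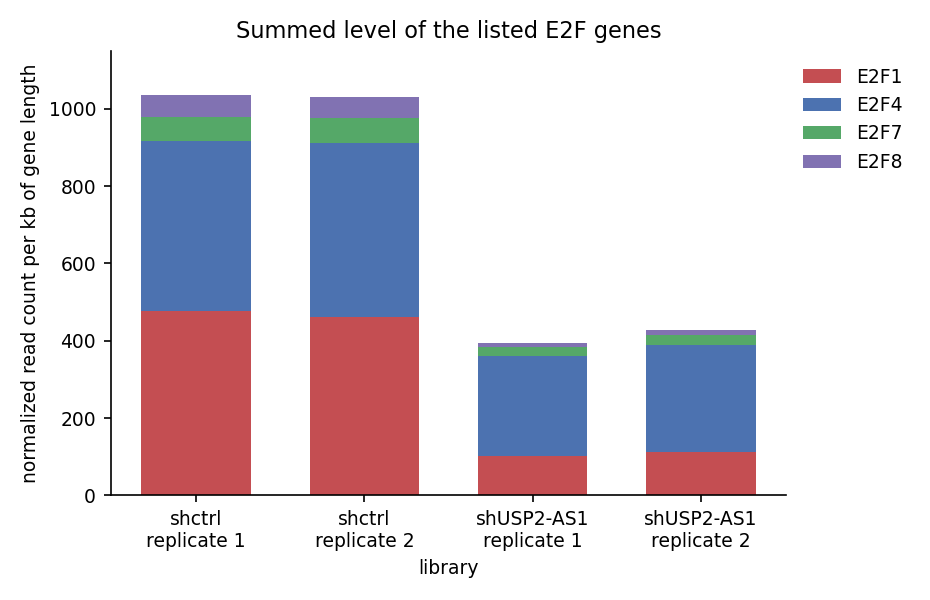
Normalized read count per kb of gene length of E2F1, E2F4, E2F7 and E2F8, stacked for each of the 4 libraries. The bars reach 1035 and 1032 in shctrl and 393 and 428 in shUSP2-AS1, and the E2F1 section goes from 45.3% to 26.2% of the bar.

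Ratios within a library need no scaling between libraries. E2F1 over E2F4, per kb, was 1.08 and 1.02 in shctrl against 0.398 and 0.407 in shUSP2-AS1. E2F4 over the sum of E2F7 and E2F8 was 3.70 and 3.75 in shctrl and 7.87 and 7.22 in shUSP2-AS1. Each of these ratios was clearly apart between the groups. Against the pocket protein gene the directions differed between the E2Fs. E2F1 over RBL1 was 4.59 and 4.08 in shctrl and 2.40 and 2.46 in shUSP2-AS1, while E2F4 over RBL1 was 4.25 and 3.98 and then 6.03 and 6.05. RBL1 messenger therefore stood higher relative to E2F1, and lower relative to E2F4, in the knockdown libraries. E2F7 over E2F8 was 1.095 and 1.17 in shctrl and 2.57 and 1.82 in shUSP2-AS1, where the replicates were far apart.

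The deposited gene descriptions hold the letters E2F in 9 rows, 4 of them not among the family genes by symbol, and these were examined after their values were seen. A gene model with no symbol carries the E2F and DP winged-helix domain annotation. It lies on the minus strand of an alternate contig of chromosome 1, at 23513715 to 23538760 in the table. It had 57.01 and 43.96 normalized reads in shctrl and 10.5 and 2.64 in shUSP2-AS1, from 59 and 40 reads against 10 and 3 reads. Both knockdown values were low, with a log2 fold change of -2.98 (SE 0.49, limma adjusted p = 2.18e-05). RefSeq places the promoter of E2F2 on the minus strand of the same chromosome (chr1:23531184-23531483), and whether these reads belong to E2F2 was not tested. EMSLR (ENSG00000232445, chromosome 7, 101308270 to 101314800), described in the table as an E2F1 mRNA stabilizing lncRNA, had 121 and 112 normalized reads in shctrl and 41.0 and 44.9 in shUSP2-AS1. Its groups did not overlap, and its log2 fold change was -1.42 (SE 0.20, limma adjusted p = 4.42e-06). SUZ12, a polycomb subunit whose description names it an E2F target, had a log2 fold change of -1.24 and was called lower. GOLGA8B, a golgin gene that holds the letters only in a protein accession, had 0.85 and was not called.

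The genes whose profile over the 4 libraries was nearest to that of E2F1 were then listed. Likeness was the Euclidean distance between centred log2 profiles, over 6091 genes with a mean of at least 100. Among the 5 nearest were CDCA7L, at a distance of 0.0597, RRAS2 (a RAS-related GTPase) at 0.0769, NEDD1 (a spindle protein) at 0.0806 and CENPN (a centromere protein) at 0.0817. CDCA7L had 394 and 369 normalized reads in shctrl and 86.2 and 91.6 in shUSP2-AS1. A gene picked for its nearness to E2F1 has to be low in both knockdown libraries, so these values are a description only. The family genes themselves stood further away, E2F8 at place 143, E2F7 at 354, RBL1 at 429, TFDP2 at 527 and E2F4 at 1239. The distance takes in both the change between the groups and the differences between replicates.

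Regulators that act above the family come next. Of 14 G1 cyclins, kinases and related genes, which drive the release of E2Fs from pocket proteins, 11 were tested, 10 were lower and 1 higher at the adjusted p, and 5 were called lower and 0 higher. Their median log2 fold change was -0.97. Of all tested genes 49.4% were lower and 50.6% higher at the adjusted p, and 13.5% were called lower and 16.1% higher. The called genes were CCNA2 (-2.42), CDK2 (-2.03), CDC25A (-1.51), CCNE2 (-1.50) and CCNE1 (-1.24). CDC25A encodes a phosphatase that activates the kinases, and the others encode cyclins and a kinase. CDK4 (-0.97), close to the threshold, and CCND1 (-0.63) were lower without reaching it. Of 7 kinase inhibitor genes, which keep pocket proteins bound to E2Fs, 2 were tested. CDKN1A, which encodes p21, had 7436 and 6989 normalized reads in shctrl and 20618 and 20765 in shUSP2-AS1. Both knockdown libraries were high, and the log2 fold change was 1.52 (SE 0.05, limma), which was called higher. CDKN2C had a log2 fold change of -0.53, and CDKN1B, CDKN1C, CDKN2A, CDKN2B and CDKN2D were not among the listed genes.

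Complexes in which E2F4 and RBL1 are known to work were followed next. Of 9 genes for subunits and close partners of the DREAM and MYB-MuvB complexes, which repress and then activate cell cycle genes, 6 were tested, 6 were lower at the adjusted p (49.4% of all tested genes) and 5 were called lower (13.5% of all tested genes). The median log2 fold change was -1.45. MYBL2, the activating partner of the core, had 2621 and 2788 normalized reads in shctrl and 616 and 634 in shUSP2-AS1. FOXM1, which joins it in G2, had 1725 and 1812 and then 395 and 409. For both genes the knockdown libraries were low and close together, and their log2 fold changes were -2.11 and -2.13. MYBL1 (-1.47), LIN9 (-1.42) and LIN52 (-1.05) were also called lower, and the histone-binding subunit RBBP4 (-0.82) was not called. LIN37, LIN54 and DYRK1A were not among the listed genes.

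Of 19 coactivators and corepressors of the E2Fs, 10 were tested, 10 were lower at the adjusted p and 1 was called lower, with a median log2 fold change of -0.51. Over all tested genes 49.4% were lower and 50.6% higher at the adjusted p, and 13.5% were called lower and 16.1% higher, so that the called share of the cofactors was near the background. The called gene was SUV39H1, a histone H3 lysine methyltransferase (-1.46). The corepressor SIN3A (-0.98), the host cell factor HCFC1 (-0.88) and the deacetylase HDAC2 (-0.83) did not reach the fold change threshold. Of 10 polycomb partners of E2F6, 4 were tested, 3 were lower and 1 higher at the adjusted p, and 0 were called, with log2 fold changes of -0.87 for WDR5, -0.51 for PCGF6, -0.46 for CBX3 and 0.64 for YAF2. Of 12 genes for the turnover of E2F proteins and of their regulators, 11 were tested, 9 were lower and 2 higher at the adjusted p, and 6 were called lower and 0 higher, beside the same 13.5% and 16.1% of all tested genes. The median was -1.73. The leading genes encode parts of the anaphase-promoting complex system, CDC20 (-2.86), UBE2C (-2.79) and UBE2S (-1.97), and the SCF cofactor CKS1B (-2.10), whereas MDM2 (0.69) and SKP1 (0.22) were the higher ones.

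Textbook targets of the family were taken in 2 lists. Of 33 S phase targets, all 33 were tested, 33 were lower at the adjusted p (49.4% of all tested genes) and 32 were called lower (13.5% of all tested genes), with a median log2 fold change of -2.06. MCM7, a subunit of the replicative helicase, had 6955 and 6880 normalized reads in shctrl and 1046 and 1073 in shUSP2-AS1. MCM5, of the same helicase, had 3079 and 3103 and then 466 and 468. In both genes the replicates were nearly equal and the knockdown libraries low, with log2 fold changes of -2.71 and -2.72. TK1 (thymidine kinase, -2.57) and RRM2 (ribonucleotide reductase, -2.33) fell alongside. Of 16 apoptosis genes described as E2F targets, 10 were tested, 4 were lower and 6 higher at the adjusted p, and 1 was called lower and 3 higher, with a median of 0.46. Of all tested genes 49.4% were lower and 50.6% higher at the adjusted p, and 13.5% were called lower and 16.1% higher. TP53INP1 had 346 and 391 normalized reads in shctrl and 1370 and 1424 in shUSP2-AS1, and BBC3, a BH3-only protein gene, had 439 and 376 and then 1124 and 1274. Both were high in the knockdown libraries, with log2 fold changes of 1.92 and 1.56. SIVA1 (-1.32) was called lower. TP53INP1 and BBC3 are known p53 targets as well, as is CDKN1A. The lists share members and were chosen with results of these data known. MYBL2 and the called genes CCNA2, CDC25A, CCNE1 and CCNE2 of the G1 list are also among the S phase targets.

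**Figure D4:**
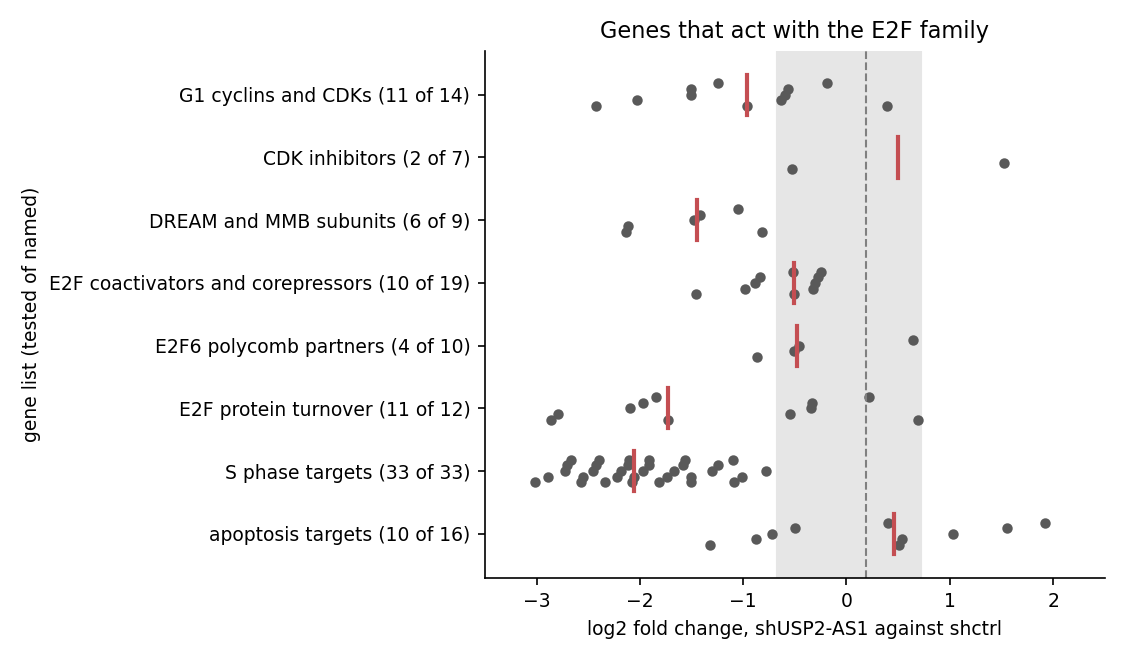
Log2 fold change (shUSP2-AS1 against shctrl) of the tested genes of 8 lists, 1 point per gene, with a red line at the list median, a dashed line at the median of all tested genes (0.19) and a grey band from their lower to their upper quartile. The S phase targets lie on the left, with a median of -2.06, and the apoptosis targets lie on both sides of 0, with a median of 0.46; the vertical position within a row has no meaning.

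G3BP1, an RNA-binding protein studied alongside USP2-AS1, had a log2 fold change of -0.35 and was not called. Of 9 markers of lung epithelial cells, 4 were tested. KRT18 (-1.05) was called lower, and KRT8 (-0.77), KRT7 (-0.49) and KRT19 (0.75) were not called. Per kb, KRT7 was the most abundant of the 4, with a mean of 14141 normalized reads per kb in shctrl and 10048 in shUSP2-AS1. EPCAM, CDH1, SFTPB, SFTPC and NKX2-1 were not among the listed genes. Of 8 markers of leukocytes, endothelial cells and fibroblasts, COL1A1 alone was listed, with 261 and 293 normalized reads in shctrl and 530 and 618 in shUSP2-AS1 (log2 fold change 1.05, called higher). Of all tested genes, 13.5% were called lower and 16.1% higher. The part of these markers in the family's changes was not tested.

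The size of the changes depended little on the processing. Over 14 alternatives for each gene, the log2 fold change of E2F1 was between -2.24 and -2.05 and that of E2F4 between -0.85 and -0.68. Those of E2F7 were between -1.51 and -1.33, those of RBL1 between -1.41 and -1.23 and those of TFDP2 between -1.29 and -1.09. E2F8 had the widest range, from -2.58 to -2.02, and its ends came from leaving out 1 of the knockdown libraries.

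**Figure D5:**
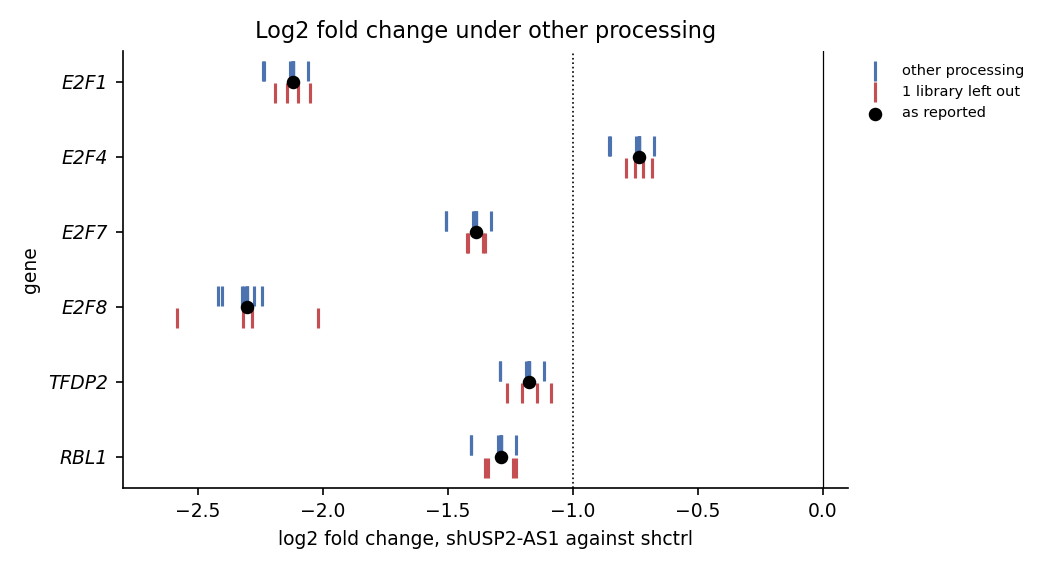
Log2 fold change (shUSP2-AS1 against shctrl) of each family gene as reported (black point), under other scalings, filters and tests (blue ticks) and with 1 library left out (red ticks), with a dotted line at the threshold of -1. The 5 called genes stay to the left of that line and E2F4 to its right; E2F8 spans -2.58 to -2.02.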

How the data were processed

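RNA-seq was performed in A549 cells with 2 libraries per group. The table deposited by the authors gives each library's reads on a gene scaled by a size factor (a normalized signal). As deposited it also holds the log2 fold changes and adjusted p-values that the authors computed with DESeq2 from read counts, and lists genes with an adjusted p-value below 0.05. The submitters' processing notes name hg38, HISAT2 (2.0.5), featureCounts (1.5.0-p3) and DESeq2 (1.20.0), with no settings. Columns were assigned to groups by name, scr to shctrl and sh216 to shUSP2-AS1. The authors' fold changes were not used.

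Divided by what 1 read was worth in its library (0.966, 1.099, 1.05 and 0.880), the values gave whole reads in 100% of cases, within 0.01 read. Limma was fitted to log2(value + 1) of the 6812 genes that reached a mean of 10 (limma version 3.58.1, R version 4.3.3), with a trend and Benjamini-Hochberg adjustment over all of them, and fold changes are on this scale. Between replicates, chi-square per degree of freedom was 3.78 in shctrl and 3.92 in shUSP2-AS1, above counting noise. Alternatives were RLE, upper quartile and TMM scaling, other filters and pseudocounts, edgeR (version 4.0.16) and DESeq2 (version 1.42.0) on the recovered reads, a replicate block and each library left out, where the lone library of an arm is assumed to vary like those of the other group.

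The members and gene lists were chosen with earlier results of these data known. Named were the family genes, USP2-AS1, the 4 lowest-p genes per list, the 5 profiles nearest to E2F1 and the genes behind a count of 5 or fewer. SUZ12, GOLGA8B, EMSLR and the gene model with no symbol were chosen after their values were seen. Some genes that this rule names are not reported here.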

Additional observations from a re-analysis of the deposited data

How the results depend on the processing

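For the 6 family genes no alternative turned a direction, and the calls of 5 stood under every alternative except the test against a fold change of 2, where TFDP2 lost its call. In the fits with 1 library left out, the spread comes from the other group alone. Called genes in all were 2020, and came to 1064 in the test against a fold change of 2. Without a fold change threshold, an alternative chosen after seeing the data, 6811 genes passed, all 6 family genes among them. On the recovered reads edgeR called 2022 genes (923 lower, 1099 higher) and DESeq2 2082 (1140 lower, 942 higher), and with 1 library left out limma called 1939 to 2030. With levels not divided by length, the share of E2F1 in the summed E2F level was 36.1% in shctrl and 19.965% in shUSP2-AS1, in place of 45.3% and 26.2%. RLE scaling of the listed genes shifted the median of the tested genes by -0.12 (log2), and all 6 family genes stayed lower. The sources used here do not say whether replicate numbers pair the libraries. The replicate differences of the groups had a correlation of -0.04 across genes, which shows no strong shared shift but cannot tell how the libraries were prepared. With the replicate block 2020 genes and 5 family genes were called. The limma adjusted p of E2F1 was 2.36e-13 without the block and 1.75e-100 with it, so the size of the p-values depends strongly on the model. The table holds 2 libraries per group and the genes selected by the authors, so nothing is known here of the expression of the unlisted members. E2F8 and USP2-AS1 rest on few reads.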
